A study of Mus musculus with 460 samples.

Results

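The Hedgehog pathway was examined through 9 genes that carry its reception and transcriptional response: Ptch1 (the receptor), Hhip (a membrane protein that binds and withholds the ligands), Smo (the transducer), Boc, Cdon and Gas1 (co-receptors), and Gli1, Gli2 and Gli3 (the transcription factors). They were chosen by gene symbol among the 48440 genes of the deposited table, and all 9 were counted in at least 10% of cells. The data are single-cell RNA-seq of cells labelled CAFs, the usual short form for cancer-associated fibroblasts, and tCAFs, from mice with lung adenocarcinoma. There were 460 samples, each of them 1 cell, and every cell carried the same labels, with no age, sex, treatment or other group. As no animal or culture is named, all cells counted as 1 sample and no p-value was computed from them.

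Within that sample, 44.1% of cells had more Rgs5 than Pdgfra counts, and the rest, 55.9%, had more Pdgfra than Rgs5. Rgs5 is a pericyte gene and Pdgfra a fibroblast receptor. Total molecular barcode counts ranged from 25029 to 240496 per cell, with medians of 76944 in cells with Rgs5 above Pdgfra and 96654 in the rest. The mesenchymal genes Col1a1, Pdgfrb and Pdgfra were counted in all cells, as was Rgs5, so the split orders cells by relative level and not by presence. RNA of the alveolar surfactant gene Sftpc, which fibroblasts are not known to make, was counted in 80.9% of cells. Low-count detection of any gene can therefore include RNA from other cells, whose part in the shares below was not tested.

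In Hedgehog signalling a secreted ligand binds PTCH1, which then stops holding SMO inactive. SMO acts at the primary cilium and lets the GLI proteins act as activators, with GLI2 as the main first activator and GLI3 largely as a repressor in the absence of ligand. Gli1, Ptch1 and Hhip are themselves transcribed in response, so their RNA is widely used as a readout of the pathway, and PTCH1 and HHIP then limit the signal. In developing and adult lung the ligand comes mainly from epithelium, and the responding cells are mesenchymal.

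Hhip and Ptch1 are classical targets whose RNA differed between the sets of cells and went together over cells, so the DNA just upstream of their RefSeq starts is shown, 5′ to 3′ on the strand of the gene, from RefSeq on GRCm38.p6 (mm10). The Hhip gene spans chr8:79965851-80058006 on the minus strand, and its window is chr8:80058009-80058258. The Ptch1 gene spans chr13:63508328-63573598 on the minus strand. Its window, chr13:63565736-63565985, lies inside that span, which reaches farther upstream in the GENCODE annotation than the RefSeq start.
Hhip: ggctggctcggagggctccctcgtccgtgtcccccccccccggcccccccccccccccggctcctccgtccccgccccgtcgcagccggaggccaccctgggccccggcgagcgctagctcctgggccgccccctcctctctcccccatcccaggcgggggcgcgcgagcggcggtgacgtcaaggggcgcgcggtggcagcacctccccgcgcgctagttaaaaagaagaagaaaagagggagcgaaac
Ptch1: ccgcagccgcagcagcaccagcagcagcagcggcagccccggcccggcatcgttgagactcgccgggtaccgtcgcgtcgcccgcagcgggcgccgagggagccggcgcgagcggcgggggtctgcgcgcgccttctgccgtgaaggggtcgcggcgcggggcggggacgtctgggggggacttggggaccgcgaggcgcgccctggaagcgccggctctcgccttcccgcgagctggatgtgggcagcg
Both are rich in G and C, at 76% in the Hhip window and 78.4% in the Ptch1 window, against a median of 52.4% over 32851 windows of the same length. The GLI consensus GACCACCCA, searched on both strands, is in neither window, and neither is GACCNCCCA, the shorter CCACCCA contained in the consensus, or the consensus with 1 mismatch. Among all windows 0.225% held the consensus, 0.868% GACCNCCCA, 8.11% CCACCCA and 5.79% the consensus with 1 mismatch. Windows were found for 7 of the 9 genes. All 7 lacked these letters, so no bases are in capitals. Other stretches of these loci were not searched.

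Ptch1 was the most abundant of the 9 genes. Summed over all cells it reached 978 CPM (counts scaled to a total of 1000000), with an exact Poisson 95% interval of 968 to 987, and it was counted in 99.8% of cells. Scaled to the length of annotated exons, Ptch1 stood at 68.9 CPM per kilobase, followed by Smo at 44.3 and Boc at 30.99. Next came Gli1 at 16.7, Hhip at 14.7, Gli3 at 12.5 and Gli2 at 10.9 CPM per kilobase, and the lowest were Gas1 at 6.19 and Cdon at 3.14. No neighbours in this order had overlapping counting intervals, whereas single cells overlapped widely between all neighbouring genes. The scaling assumes that counts gather over the whole transcript, which the labels do not state. Intervals cover counting error only.

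Detection followed another order than level per kilobase. It followed the order of summed CPM except for Hhip, which at 133.8 CPM stood above Gli3 (119.6), Gli1 (83.3) and Gli2 (74.6) but was counted in fewer cells. To set shares at equal depth, 56586 counts were drawn at random from every cell, and the 46 cells with fewer were left out. Of the other cells, 99.5% had a Ptch1 count, 98.6% Smo, 90.1% Boc and 86.7% Gli3. Gli1 was counted in 72.5%, Gli2 in 60.6%, Hhip in 51.4%, Cdon in 27.1% and Gas1 in 24.6%. Receptor, transducer and Boc were thus counted in nearly all cells, while Cdon and Gas1 were counted in a minority. Without thinning the shares were 99.8% for Ptch1, 98.04% for Smo, 91.1% for Boc, 90% for Gli3, 74.8% for Gli1, 65.7% for Gli2, 60.2% for Hhip, 30% for Cdon and 29.8% for Gas1.

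**Figure D1:**
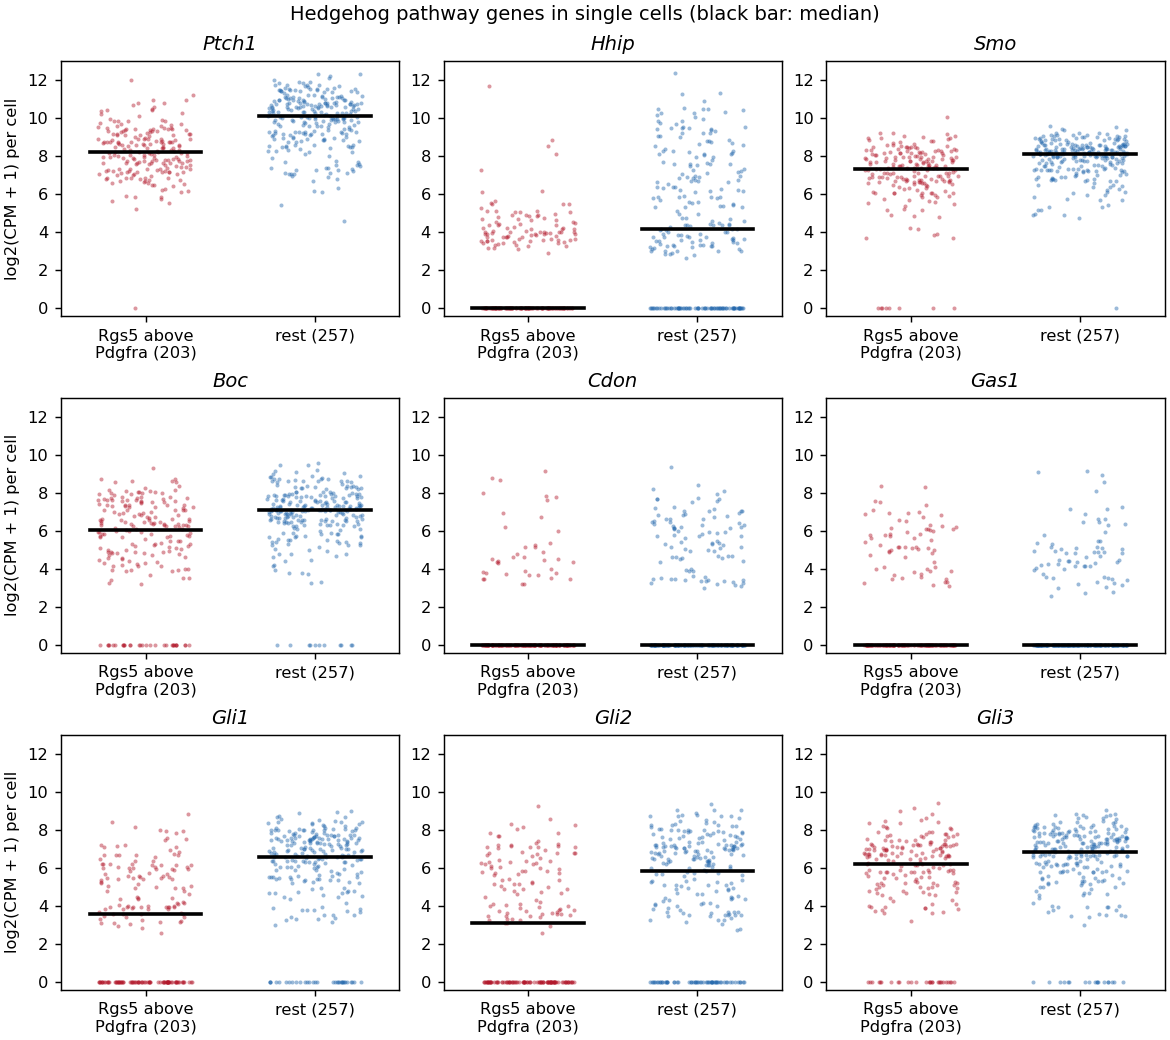
Level of each of the 9 genes in every cell, as log2(CPM + 1), for cells with Rgs5 above Pdgfra (red, left) and the rest (blue, right); each point is a cell and the black bar is the median. Median Ptch1 was 297.2 CPM in cells with Rgs5 above Pdgfra and 1104 CPM in the rest, median Gli1 was 11.02 CPM in cells with Rgs5 above Pdgfra and 93.1 CPM in the rest, and the sets overlap in every panel.

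Cells with Rgs5 above Pdgfra had less of the Hedgehog readout genes than the rest. Of the 9 genes, 4 were at least 2-fold lower (Hhip, Gli1, Ptch1 and Gli2) and none was at least 2-fold higher. For comparison, 5.26% of the 13975 genes counted in at least 10% of cells were at least 2-fold lower and 3.98% at least 2-fold higher. The log2 ratio was negative for 8 of 9 genes, with a median of -0.79, whereas the median over all 13975 genes was 0.02. No test stands behind these counts, since the cells form 1 sample. The split was made on Rgs5 and Pdgfra alone, and none of the 9 genes entered it.

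Ptch1 ranged per cell from 0 to 4145 CPM with a median of 297.2 CPM in cells with Rgs5 above Pdgfra, and from 23.6 to 5126 CPM with a median of 1104 CPM in the rest. The sets overlapped, but the upper quartile of the cells with Rgs5 above Pdgfra, 558 CPM, lay close to the lower quartile of the rest, 520 CPM. Summed, Ptch1 stood at 440.9 CPM in cells with Rgs5 above Pdgfra and 1333 CPM in the rest, a log2 ratio of -1.60 with a counting interval of -1.63 to -1.56. Ptch1 was still counted in 99.5% of the cells with Rgs5 above Pdgfra, so the difference was one of amount.

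Hhip had the largest ratio of the 9. Its median per cell was 0 in cells with Rgs5 above Pdgfra and 17.03 CPM in the rest, and its highest value was 3346.5 CPM in cells with Rgs5 above Pdgfra and 5275 CPM in the rest. Summed, Hhip stood at 27.5 CPM in cells with Rgs5 above Pdgfra and 204.02 CPM in the rest, 7.42-fold lower (log2 ratio -2.89, counting interval -3.03 to -2.76). This value rests partly on 1 cell. That cell, the one at 3346.5 CPM, held 47.6% of all Hhip counts of its set, where the next highest cell held 9.66%. It lay just inside the split, with 376.9 CPM of Rgs5 and 361.8 CPM of Pdgfra, and it also had 4145 CPM of Ptch1 and 452.2 CPM of Gli1, the highest of both in its set. Without it Hhip stood at 14.4 CPM in cells with Rgs5 above Pdgfra, 14.1-fold lower than in the rest. At equal depth Hhip was counted in 40.9% of cells with Rgs5 above Pdgfra (exact 95% interval 33.5 to 48.7) and 58.8% of the rest (52.4 to 65.1), so the sets differed more in amount than in detection.

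Smo was counted in nearly all cells of both sets and differed by less than 2-fold. Its median was 159.4 CPM in cells with Rgs5 above Pdgfra and 275.8 CPM in the rest. Its summed level was 194.8 CPM in cells with Rgs5 above Pdgfra and 284.5 CPM in the rest, a log2 ratio of -0.55 (-0.61 to -0.49). The ratio of Ptch1 was therefore larger in size than that of the transducer it holds in check.

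Among the co-receptors, Boc had medians of 65.1 CPM in cells with Rgs5 above Pdgfra and 135.7 CPM in the rest, with a summed log2 ratio of -0.79 (-0.88 to -0.71). Cdon and Gas1 had medians of 0 in both sets, so their sums rest on few cells. Cdon summed to 19.3 CPM in cells with Rgs5 above Pdgfra and 27.5 CPM in the rest (log2 ratio -0.51), but 3 cells held 48.8% of its counts among cells with Rgs5 above Pdgfra, against 15.2% in the rest. At equal depth Cdon was counted in 15.8% of cells with Rgs5 above Pdgfra (10.7 to 22.1) and 34.98% of the rest (28.99 to 41.3). When the 5% of cells with the most counts were left out, Cdon was also past 2-fold, with a log2 ratio of -1.29. Gas1 was the sole member with a positive ratio, 20.5 CPM in cells with Rgs5 above Pdgfra and 16.9 CPM in the rest (log2 ratio 0.28), and its sign turned to -0.23 without the 5% of cells with the most counts and to -0.08 without the 10% of cells richest in markers of other lineages.

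Most cells had counts of 1 or 2 of the 3 co-receptors. At equal depth, none of the 3 was counted in 9.36% of cells with Rgs5 above Pdgfra (5.44 to 14.7) and in 3.70% of the rest (1.71 to 6.91). Exactly 1 was counted in 56.7% of cells with Rgs5 above Pdgfra and 50.6% of the rest, exactly 2 in 28.7% of cells with Rgs5 above Pdgfra and 37.4% of the rest, and all 3 in 5.26% of cells with Rgs5 above Pdgfra and 8.23% of the rest. Boc was the co-receptor counted most often, and Gas1 was counted in 25.9% of cells with Cdon and 24.2% of cells without Cdon.

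Of the transcription factors, Gli1, itself a target, differed most. Its median was 11.02 CPM in cells with Rgs5 above Pdgfra and 93.1 CPM in the rest, and its highest value 452.2 CPM in cells with Rgs5 above Pdgfra and 513 CPM in the rest, so the sets overlapped up to their upper ends. Summed, Gli1 stood at 34.7 CPM in cells with Rgs5 above Pdgfra and 115.4 CPM in the rest, 3.33-fold lower (log2 ratio -1.73, -1.86 to -1.61). It was counted at equal depth in 53.2% of cells with Rgs5 above Pdgfra (45.4 to 60.9) and 86.01% of the rest (81 to 90.1). The Gli1 locus (chr10:127329882-127341974, minus strand) overlaps the oppositely oriented Arhgap9, and whether counting used strand is not stated. Over all cells Arhgap9 stood at 4.55 CPM and Gli1 at 83.3 CPM.

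Gli2 had medians of 7.46 CPM in cells with Rgs5 above Pdgfra and 55.98 CPM in the rest, and summed to 42.6 CPM in cells with Rgs5 above Pdgfra and 95.7 CPM in the rest (log2 ratio -1.17, -1.29 to -1.05). Gli3 had medians of 71.97 CPM in cells with Rgs5 above Pdgfra and 114.6 CPM in the rest, and its summed log2 ratio was -0.51 (-0.59 to -0.42). The factor with the main repressor role was thus nearer to equal between the sets than Gli1 and Gli2. Per kilobase, Gli3 was the highest of the 3 factors in cells with Rgs5 above Pdgfra, at 9.95 against 6.94 for Gli1 and 6.20 for Gli2, whereas Gli1 was the highest in the rest, at 23.1 against 14.1 for Gli3 and 13.9 for Gli2.

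**Figure D2:**
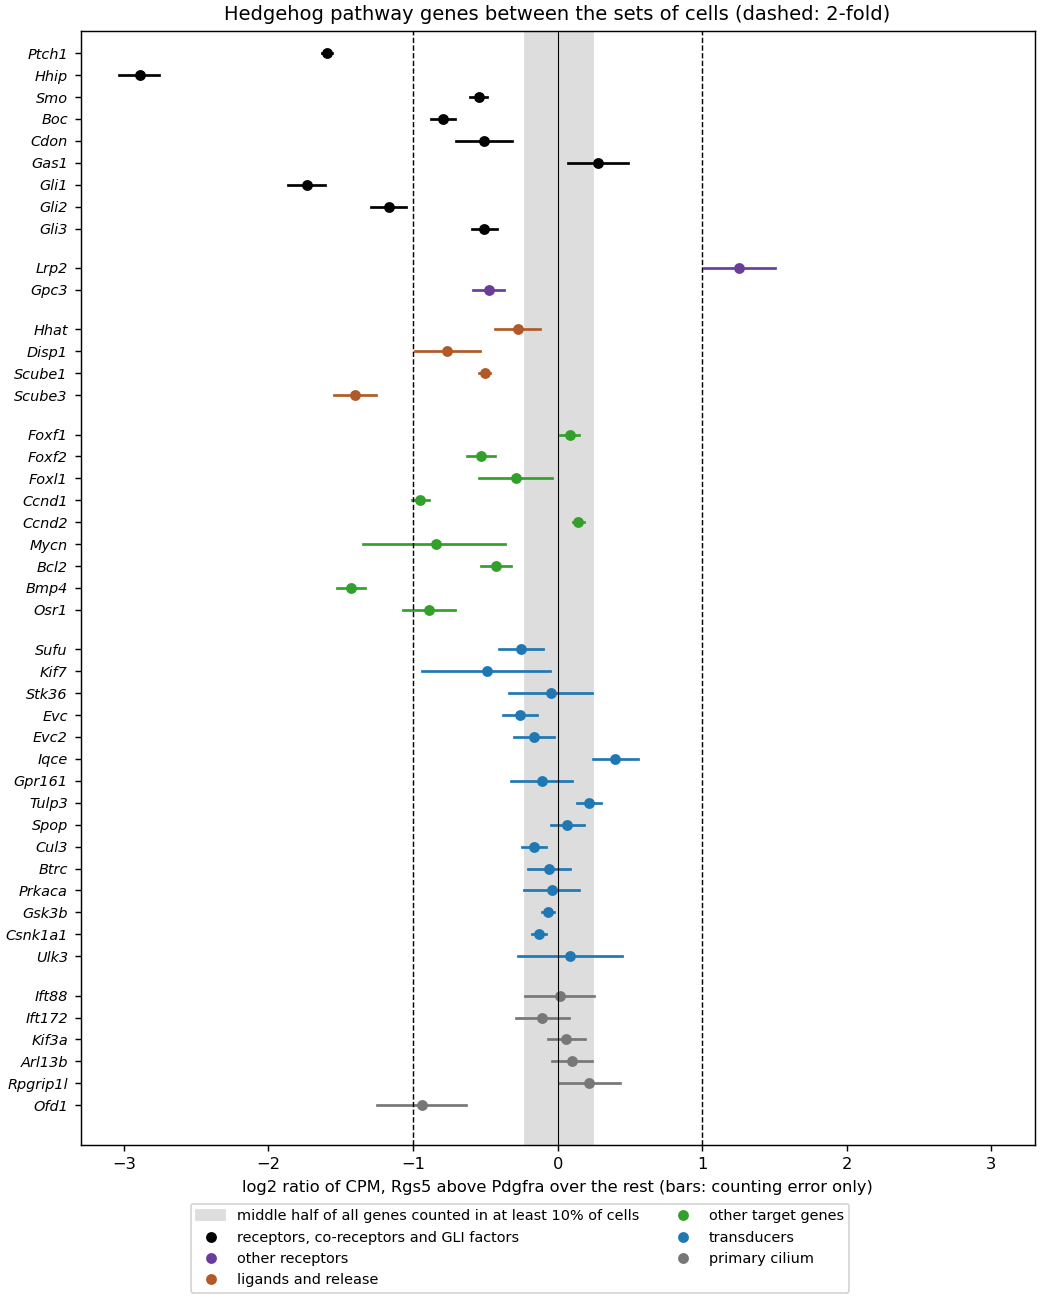
Log2 ratio of summed CPM, cells with Rgs5 above Pdgfra over the rest, for the 9 genes (black) and the other listed pathway genes counted in at least 10% of cells; bars are 95% intervals for counting error, the grey band runs from the lower to the upper quartile of all 13975 genes and dashed lines mark 2-fold. Hhip (-2.89), Gli1 (-1.73), Ptch1 (-1.60), Bmp4 (-1.43), Scube3 (-1.40) and Gli2 (-1.17) lie below -1, and Lrp2 (1.26) is the only one above 1.

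The split has a threshold, and 31 cells lay inside it and 40 outside it within 2-fold of equal counts. Cells were also placed in 6 bins of log2((Rgs5 + 1)/(Pdgfra + 1)), with edges at -3, -1, 0, 1 and 3. From the bin richest in Pdgfra to the bin richest in Rgs5, Ptch1 stood at 1647, 1240, 942, 841, 418.5 and 355.3 CPM, and Gli1 at 134.4, 106.4, 103.1, 81.6, 38.9 and 22.1 CPM. Both sums were lower in each bin than in the bin before it, with no jump at the threshold itself. The bin just inside the threshold holds the Hhip-rich cell, which raises its Ptch1 and Gli1 sums. Medians per cell across the threshold were 676.9 and 551.9 CPM for Ptch1 and 71.4 and 59.7 CPM for Gli1. In the last bins the median of Ptch1 was 256.5 and then 282.6 CPM, so its medians did not fall throughout.

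Gli2 behaved otherwise, at 98.2, 92.97, 99.5 and 114.8 CPM in the first 4 bins and 54.3 and 21.2 CPM in the last ones. Smo, at 300.8, 280.4, 261.7 and 287.3 CPM before 202.4 and 170.1 CPM, and Boc, at 162.5, 170.4, 158.1 and 157.6 CPM before 103.7 and 78.04 CPM, shared that shape. Hhip stood at 277.6, 188.7, 91.6, 134.2, 7.07 and 10.1 CPM. The bin just inside the threshold (0 to 1) holds the single Hhip-rich cell, and without it Hhip stood at 45.7 CPM there. In the same bin of 31 cells Cdon reached 67.1 CPM, of which 3 cells held 90.4% of the counts, and Gas1 41.6 CPM, of which 3 cells held 70.9%.

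**Figure D3:**
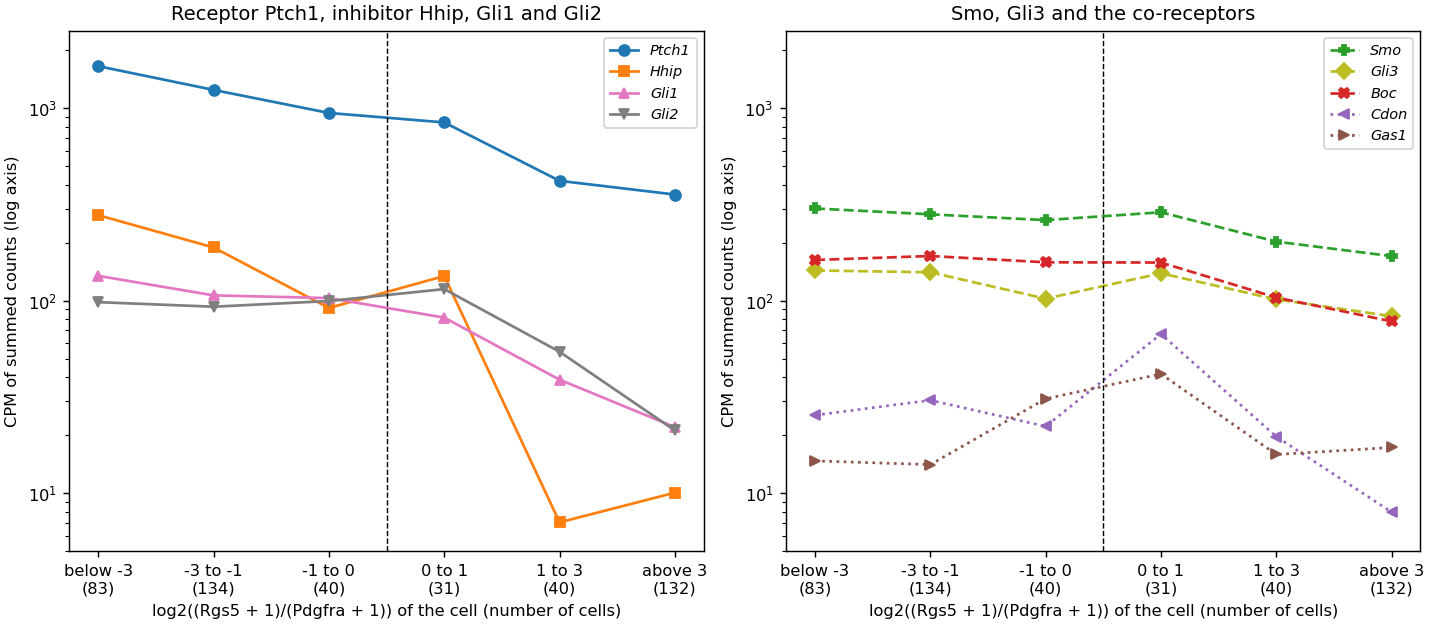
Summed CPM (log axis) of the 9 genes in 6 bins of cells ordered by log2((Rgs5 + 1)/(Pdgfra + 1)), with the number of cells under each bin; the dashed line is the threshold of the split. Ptch1 (1647 to 355.3 CPM) and Gli1 (134.4 to 22.1 CPM) decline over all bins, while Gli2, Smo and Boc have their lowest values in the bins farthest to the right.

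Markers of several cell types moved with the split. Of the mural markers, 7 of 9 were at least 2-fold higher in cells with Rgs5 above Pdgfra, and of the fibroblast markers 3 of 8 were at least 2-fold lower. Rgs5 and Pdgfra are in these lists and made the split, so the counts only describe it. For this and the lists below, the shares over all 13975 genes were 3.98% at least 2-fold higher and 5.26% at least 2-fold lower. All 5 immune markers counted in at least 10% of cells (of 7 listed) were at least 2-fold higher in cells with Rgs5 above Pdgfra, with a summed marker level per cell of 0 to 8601 CPM (median 75.5) in that set and 0 to 5529 CPM (median 70.1) in the rest; Cd3e and Cd79a, of lymphocytes, were counted in 1.96% and 1.74% of all cells. Of 8 epithelial markers that passed (of 9), 3 were at least 2-fold higher, with summed levels of 0 to 20960 CPM (median 722) in cells with Rgs5 above Pdgfra and 0 to 23980.5 CPM (median 607) in the rest. Of 5 endothelial markers that passed (of 6), 1 was at least 2-fold higher, and they summed to 0 to 3793 CPM (median 13.8) in cells with Rgs5 above Pdgfra and 0 to 4750 CPM (median 11.2) in the rest, and mesothelial markers, of which 1 of 5 passed, had a median of 0 in both. No listed marker of these lineages was at 0 over all cells, and their part in the differences was not tested. Leaving out the 10% of cells richest in these markers kept the same 4 genes past 2-fold. The surfactant genes Sftpc, Sftpb and Sftpa1 did not enter that ranking, so it does not address cells rich in them.

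Stretches of neighbouring columns of the table that mostly lacked Sftpc (under 30 CPM in over 50% of the 20 nearest columns) held 31.5% of cells with Rgs5 above Pdgfra and 24.5% of the rest. Without those columns, which include the Hhip-rich cell, the log2 ratio was -4.05 for Hhip and -1.65 for Ptch1, and the same 4 genes were past 2-fold. The labels name no batch.

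A set of 12 cells stood apart in their Hox genes, with more counts of groups 9 to 13, used in posterior parts of the body, than of groups 1 to 8. They were picked out after the data had been seen, and 2 of them had Rgs5 above Pdgfra. These 12 cells had 142.2 CPM of Cdon, against 20.8 CPM in the other cells, and 171.8 CPM of Gli2 against 71.7 CPM. Gli3 stood at 27.1 CPM in the 12 cells and 122.3 CPM in the others, Boc at 47.7 CPM against 140.6 CPM, and Hhip at 41.9 CPM against 136.5 CPM. A single cell, with Rgs5 above Pdgfra, held 88.2% of the 51 Hhip counts of the 12, and without it Hhip stood at 5.36 CPM. Without their richest cell, Gli3 stood at 14.3 CPM and Boc at 26.9 CPM in these cells. Ptch1 was close in both, at 1014 CPM in the 12 cells and 977 CPM in the others. Among cells with Pdgfra above Rgs5, the 10 posterior cells had 6 Hhip counts in all, or 6.44 CPM, against 211.5 CPM in the others, while their Gli1 stood at 147.1 CPM against 114.2 CPM. Hhip was thus low in those 10 cells where Gli1 was not. Without the 12 cells the log2 ratio of Hhip between the sets was -3.07, and the same 4 genes were past 2-fold.

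Over all 460 cells, Ptch1 and Gli1 varied together most closely of the 36 pairs, with a Spearman correlation of 0.63 on log-scaled counts. Hhip followed Ptch1 at 0.47 and Gli1 at 0.39, Gli1 followed Gli2 at 0.35, and Ptch1 followed Gli2 at 0.31. The cells share a source and differ in depth, and the correlations of the 9 genes with total counts ran from 0.04 for Gas1 to 0.19 for Smo. Correlations of at least 0.2 were reached with Ptch1 by 3.35%, with Gli1 by 3.04% and with Hhip by 1.31% of the other 13974 genes. Of the 36 pairs, 12 reached 0.2, the mean was 0.16, and 31 were positive.

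Inside each set the mean over the 36 pairs was lower than over all cells, and Ptch1 with Gli1 was the highest pair in both. Ptch1 and Gli1 correlated at 0.39 in cells with Rgs5 above Pdgfra and 0.52 in the rest. Hhip and Ptch1 correlated at 0.14 in cells with Rgs5 above Pdgfra and 0.49 in the rest, and Hhip and Gli1 at 0.16 in cells with Rgs5 above Pdgfra and 0.31 in the rest. The mean over 36 pairs was 0.10 in cells with Rgs5 above Pdgfra and 0.08 in the rest, and 4 pairs reached 0.2 in cells with Rgs5 above Pdgfra and 5 in the rest. The share of all genes that reach 0.2 was computed over all cells only, so these counts within the sets have no such share beside them and are descriptive. In cells with Rgs5 above Pdgfra the other 3 were Gli1 with Gli2 (0.26), Ptch1 with Smo (0.23) and Gli2 with Boc (0.21), so the Hhip pairs ranked below them. In the rest they were Hhip with Ptch1, Hhip with Gli1, Gli2 with Cdon (0.24) and Gli1 with Gli2 (0.22), and Ptch1 with Smo was 0.10. The lowest pair was Gli1 with Gas1 (-0.09) in cells with Rgs5 above Pdgfra and Ptch1 with Gas1 (-0.19) in the rest. Weak values among sparse genes such as Cdon and Gas1 are no finding. Hhip was also sparse in cells with Rgs5 above Pdgfra, where 18.2% had 2 or more Hhip counts, against 50.6% of the rest. For Gas1 that share was 25.1% in cells with Rgs5 above Pdgfra. The part of low counts in the lower Hhip correlations there was not tested.

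**Figure D4:**
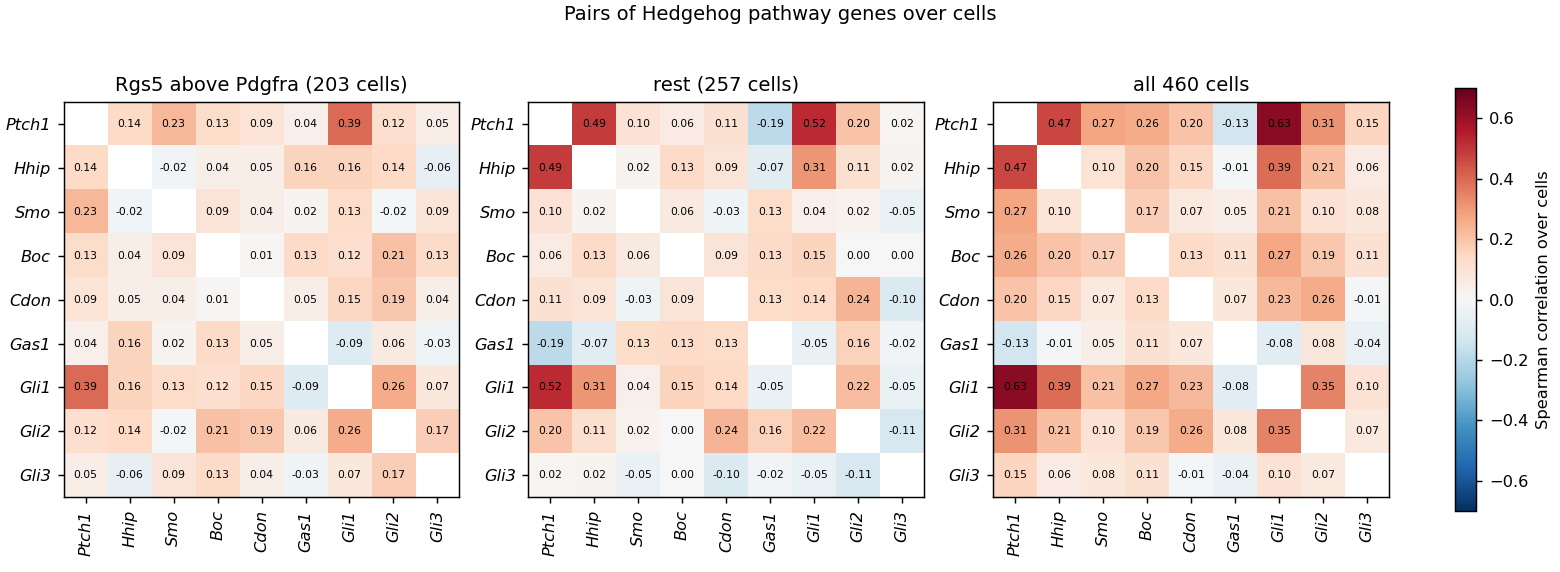
Spearman correlation over cells of each pair of the 9 genes in cells with Rgs5 above Pdgfra, in the rest and in all cells; red is positive and blue negative. Ptch1 with Gli1 is the highest pair in each panel (0.39, 0.52 and 0.63), and Hhip with Ptch1 is 0.14, 0.49 and 0.47.

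Ranking all cells by Ptch1 and dividing them into 4 equal parts gave Ptch1 levels of 144.6, 405.4, 921 and 2275 CPM. Gli1 stood at 20.2, 44.4, 94.2 and 163.3 CPM in these parts, and Hhip at 11.6, 26.9, 110.04 and 358.5 CPM. Both were higher in each part than in the part before it. The upstream genes spanned less, with Smo at 191.4, 242.3, 261.7 and 293.5 CPM and Gli3 at 92, 114.1, 136.8 and 132.8 CPM, and Gas1 ran otherwise, at 21.8, 24.7, 16.4 and 11.5 CPM.

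Done within each set, the ranking gave a different shape for Hhip. Among cells with Rgs5 above Pdgfra, Hhip stood at 8.30, 8.09 and 6.47 CPM in the first 3 parts and at 86.2 CPM in the top part, or 34.9 CPM there without the Hhip-rich cell. In the rest it stood at 35.4, 125.7, 158.8 and 502 CPM. Gli1 stood at 16.2, 22.4, 26.1 and 74.1 CPM in cells with Rgs5 above Pdgfra and at 46.6, 107.35, 122.7 and 185.5 CPM in the rest. In cells with Rgs5 above Pdgfra the top part thus stood apart from the other 3 for both genes.

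At equal depth, Ptch1, Gli1 and Hhip were all counted in 24.6% of cells with Rgs5 above Pdgfra (18.3 to 31.7) and in 52.7% of the rest (46.2 to 59.1). Over both sets, Hhip was counted in 56.7% of cells with Gli1 (50.9 to 62.4) and 37.7% of cells without Gli1 (28.8 to 47.3). Among cells with Rgs5 above Pdgfra the shares were 46.2% (35.6 to 56.9) and 35% (24.7 to 46.5). In the rest they were 61.2% (54.3 to 67.9) and 44.1% (27.2 to 62.1), so the intervals overlapped within each set. Gli1 was counted in 64.9% of cells with Gli2 and 43.6% of cells without Gli2 among cells with Rgs5 above Pdgfra, whereas in the rest these shares were 86.8% with Gli2 and 84.1% without it.

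Hhip was spread unevenly over cells. No Hhip count was seen in 39.8% of cells, 37.2% had 1 to 4 counts, 15.9% had 5 to 49, and 33 cells (7.17%) had 50 or more. Those 33 cells held 70.8% of all Hhip counts, and 32 of them had Pdgfra above Rgs5. The cell with the most held 7.23% of the total, and 16 cells held 50% of it. The 10% of cells with the most Hhip held 79.1% of its counts, against 33.4% for Ptch1 and 35.6% for Gli1. Cdon, at 75.4%, and Gas1, at 74.6%, were similarly concentrated but far sparser. Within the sets, Cdon was the most concentrated of these 3 in cells with Rgs5 above Pdgfra, at 91.2% against 78.5% for Hhip, and Gas1 in the rest, at 80.6% against 64.3% for Hhip. Of 2283 genes with at least 100 CPM, 6 had a larger share than Hhip, and their median share was 23.3%.

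**Figure D5:**
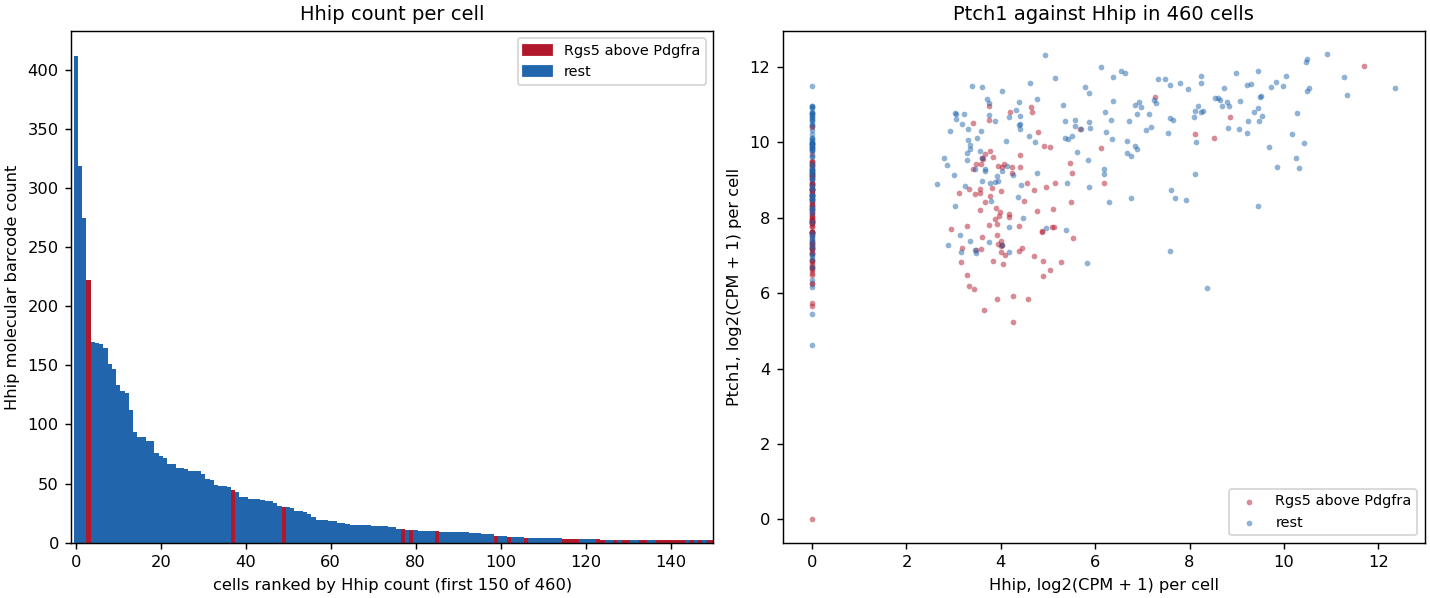
Left, Hhip counts of the 150 cells with the most, ranked, in red for cells with Rgs5 above Pdgfra and blue for the rest. Right, Ptch1 against Hhip in all 460 cells as log2(CPM + 1). The cell with the most holds 7.23% of all Hhip counts, 1 cell with Rgs5 above Pdgfra holds 47.6% of those of its set, and cells with much Hhip mostly have much Ptch1, while many cells with much Ptch1 have no Hhip count.

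Hhip counts at equal depth were used to sort cells into those with 0 (48.6%), 1 to 9 (36.2%) and 10 or more (15.2%). These are ranges of 1 gene, not cell types. Cells with Rgs5 above Pdgfra made up 50.2%, 44.7% and 4.76% of the 3 ranges, the last with an exact interval of 0.993 to 13.3. Ptch1 stood at 621, 1018 and 2080 CPM, and Gli1 at 54.6, 94.5 and 148.9 CPM. Gli2 was higher only in the top range (66.4, 62.1 and 133.4 CPM), and Smo stayed within 238.3 to 297.3 CPM.

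The same order held among cells with Pdgfra above Rgs5 alone, where Ptch1 stood at 858, 1394 and 2077 CPM in 100, 83 and 60 cells, and Gli1 at 82.7, 134.5 and 143.3 CPM. Gli1 thus differed little between the upper ranges. Among cells with Rgs5 above Pdgfra, 3 cells reached 10 or more counts, so that range is not described further. Over the 3 ranges of all cells, summed Sftpc stood at 526.2, 461.9 and 379.9 CPM, lower in each range than in the one before. Its median per cell, at 289.98, 354.9 and 283.3 CPM, did not follow their order. Whether Sftpc bears on the Hhip ranges was not tested.

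Markers listed for peribronchial and ductal myofibroblasts, lung cells that lie near airways and alveolar ducts, were mixed between the sets. Of 9 that passed, 2 were at least 2-fold higher in cells with Rgs5 above Pdgfra and 3 at least 2-fold lower. The shares over all 13975 genes were 3.98% and 5.26%. Some of the markers were higher in the top Hhip range. Tgfbi stood at 288.1, 382.5 and 975 CPM, Acta2 (smooth muscle actin) at 658, 659 and 1043 CPM, Lgr6 at 25.98, 20.4 and 75.7 CPM and Fgf18 at 31.6, 25.4 and 53.7 CPM. Wnt5a, Tagln and Actg2 were also highest in the top range. Aspn ran otherwise, at 44.7, 64.3 and 19.8 CPM, and so did Enpp2, at 93.4, 97.5 and 41.9 CPM, and the sparse Mustn1, at 8.31, 20.02 and 4.03 CPM. The summed level of the 10 listed markers had a median per cell of 1391, 1427 and 2752 CPM, within ranges that overlapped. The retinol-oxidising Adh1 stood at 142.7, 273.9 and 610.06 CPM and the growth factor Igf1 at 1159, 1510 and 3151 CPM. These ranges differ in their make-up of the sets. Among cells with Pdgfra above Rgs5 alone, Igf1 stood at 1761, 2264 and 3136 CPM, Adh1 at 239.65, 404.1 and 632 CPM and Tgfbi at 431.7, 546 and 1007 CPM. There the spans were smaller for these 3 genes, Lgr6 stood at 29.3, 33.8 and 78.7 CPM and Acta2 at 825, 693 and 1064 CPM, and Fgf18 was nearly equal in the outer ranges, at 52.1, 34.9 and 54.8 CPM. Aspn, at 35.3, 11.8 and 9.03 CPM, and Enpp2, at 82.3, 84.1 and 42.4 CPM, were lowest in the top range there too.

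By Spearman correlation over the 460 cells, Ptch1 and Gli1 were each among the 5 genes most like the other and most like Hhip, while Hhip was among the 5 of neither. For Hhip the 5 genes were Ptch1 (0.47), Adh1 (0.44), the matrix gene Hmcn1 (0.41), Igf1 (0.40) and Gli1 (0.39). For Ptch1 they were Hmcn1 (0.65), the mesenchymal cadherin Cdh11 (0.64), Gli1 (0.63), the Slit receptor gene Robo2 (0.61) and the lipid transfer gene Pltp (0.61). For Gli1 they were Ptch1 (0.63), Cdh11 (0.56), the chemokine gene Cxcl14 (0.48), Pltp (0.48) and Hmcn1 (0.48). Within the sets, Cxcl14 with Gli1 reached 0.24 in cells with Rgs5 above Pdgfra and 0.17 in the rest, whereas Hmcn1 with Ptch1 reached 0.62 in cells with Rgs5 above Pdgfra and 0.51 in the rest.

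Among ligand and release genes, RNA for the ligands themselves was nearly absent. Over all cells Shh had 22 counts, Dhh 9 and Ihh 0, the last allowing up to 0.0704 CPM and a count in up to 0.652% of cells. Of the 8 genes listed, 4 were counted in at least 10% of cells. Against 5.26% of all 13975 genes, 1 of those 4 was at least 2-fold lower. It was Scube3, which codes for a secreted protein of the family that helps release ligand, with 27.9 CPM in cells with Rgs5 above Pdgfra and 73.6 CPM in the rest (log2 ratio -1.40). Its relative Scube1 was abundant, at 488 CPM in cells with Rgs5 above Pdgfra and 692 CPM in the rest, and Disp1 and Hhat, needed in ligand-making cells for release and lipid attachment, stood at 19.1 and 35.2 CPM over all cells.

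Gpc3 and Lrp2 also code for proteins that bind Hedgehog ligands. Gpc3, a glypican that competes for ligand, stood at 59.7 CPM in cells with Rgs5 above Pdgfra and 83.1 CPM in the rest. The 10% of cells with the most Gpc3 held 89.4% of its counts in cells with Rgs5 above Pdgfra and 65.6% in the rest. Its sums thus rest on few cells, mostly so in the first set. At equal depth Gpc3 was counted in 30.99% of cells with Rgs5 above Pdgfra and 51.9% of the rest. Lrp2, an endocytic receptor, stood at 21.1 CPM in cells with Rgs5 above Pdgfra and 8.81 CPM in the rest, a log2 ratio of 1.26. Its detection ran the other way, at 10.5% of cells with Rgs5 above Pdgfra and 14.8% of the rest at equal depth. Its 3 richest cells held 65.8% of its counts in cells with Rgs5 above Pdgfra and 35.4% in the rest, so the ratio rests on few cells.

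The transducers between SMO and the GLI proteins differed by less than 2-fold. Of 15 genes that passed (of 16 listed), none was past 2-fold in either direction and the median log2 ratio was -0.07. The suppressor Sufu stood at 31.7 CPM in cells with Rgs5 above Pdgfra and 37.7 CPM in the rest, and the kinases Gsk3b and Csnk1a1 had ratios of -0.07 and -0.13. The 6 primary cilium genes were alike in this, with a median of 0.04 and none past 2-fold, and Ofd1 was farthest from 0 at -0.94 on 464 counts. Over all 13975 genes, 5.26% were at least 2-fold lower and 3.98% at least 2-fold higher. Lists as short as these would mostly hold few or none past 2-fold, so the counts do not set these genes apart.

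Of 9 further genes described as Hedgehog targets in one tissue or another, 1 was at least 2-fold lower, and the median was -0.53. It was Bmp4, a growth factor, at 64.3 CPM in cells with Rgs5 above Pdgfra and 172.9 CPM in the rest (log2 ratio -1.43), which correlated with Ptch1 and with Gli1 at 0.39 each over all cells. The cyclin gene Ccnd1 stood at 180.2 CPM in cells with Rgs5 above Pdgfra and 348.2 CPM in the rest, while Ccnd2 and the lung mesenchyme factor Foxf1 had ratios of 0.14 and 0.08. Foxf1 nevertheless correlated with Ptch1 at 0.37 in the rest, and at 0.13 in cells with Rgs5 above Pdgfra. All 3 proliferation genes that passed, of 5 listed, were at least 2-fold lower in cells with Rgs5 above Pdgfra, against 5.26% of all 13975 genes. Mki67 stood at 37.5 CPM in that set and 85.6 CPM in the rest (23.2 CPM and 70.8 CPM without the richest cell of each). The 5 listed genes summed per cell to 0 to 3188 CPM (median 8.99) in cells with Rgs5 above Pdgfra and 0 to 3623 CPM (median 9.37) in the rest. The medians were thus close, and the ratios rest on the cells with high levels. The part of these genes in the Ccnd1 difference was not tested.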

How the data were processed

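Each of the 460 samples is a cell, all in 1 group. Values in the deposited table are molecular barcode counts, whole numbers for each gene in each cell. Rgs5 exceeded Pdgfra in 203 cells, and the rest were 257 cells. Per the submitters' processing notes the authors used STAR, HTSeq and mm10; versions, settings and the use of strand are not given in the sources used here. Per the labels' protocols the libraries were made by sonication and ligation. No 2 columns were identical (highest correlation 0.834). All cells were kept, and no doublet caller was run. No count test fits 1 sample, so levels are CPM of summed counts, compared as log2 ratios, and a difference of at least 2-fold is a rule of size. Intervals are exact (Poisson for sums, Clopper-Pearson for shares and ratios) at 95%. Those of sums and ratios cover counting error only. Those of shares of cells treat the cells as independent draws, though they form 1 sample, and are descriptive. The limit for a count of 0 is 3 counts. Cells were thinned once, with a fixed seed, where shares were compared at equal depth, which kept 414 cells (171 and 243 in these sets). Correlations are Spearman's over cells, after scaling each cell to 10000 counts and taking log1p. Exon lengths came from GENCODE vM21, which matched 48058 gene identifiers. Where a symbol occurred more than once, its most abundant gene was taken.

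The members and lists were chosen with earlier results of these data known. Genes named in the text are the 9 members, Rgs5 and Pdgfra, the ligands, the 3 most abundant genes of each list and any past 2-fold, and the 5 genes most like Hhip, Ptch1 and Gli1 (ribosomal protein, mitochondrial and unnamed genes left out). From the lists these were drawn on where a result used them, and Sufu, Disp1, Hhat, Ofd1, Arhgap9, Sftpc, Cd3e, Cd79a and genes tabulated over Hhip ranges were named outside that rule, after their values were seen. Certain items are not reported here. The calculations were tested on simulated data. Python 3.11.15 with numpy 2.4.6, scipy 1.17.1, pandas 2.3.3 and matplotlib 3.10.9, and R 4.3.3 with scran 1.30.0 for another scaling, were used. Alternatives changed the scaling, the depth, the margin of the split, the filter on detection and the cells kept.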

Additional observations from a re-analysis of the deposited data

How the results depend on the processing

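Hhip, Ptch1, Gli1 and Gli2 were at least 2-fold lower in cells with Rgs5 above Pdgfra under all 9 alternatives, and Cdon joined them under a 2-fold margin between Rgs5 and Pdgfra and without the 5% of cells with the most counts. No log2 ratio of these 4 genes changed sign. For Hhip, -2.89 as reported, the log2 ratio was -2.70 as a mean of single-cell CPM, -2.60 in thinned counts, -4.59 with the 2-fold margin, -4.05 without columns whose neighbours mostly lack Sftpc, -3.07 without the posterior Hox cells and -3.82 without the Hhip-richest cell of cells with Rgs5 above Pdgfra. For Ptch1 it was -1.91 with the margin, -1.64 without the 5% of cells with the most counts, -1.65 without the columns lacking Sftpc and -1.64 without the Hhip-richest cell, and for Gli1 -2.14 with the margin. The share of Hhip counts in the top 10% of cells was 77.95% in thinned counts, 80.7% without the 5% of cells with the most counts and 77.9% without the 10% of cells richest in other lineages. Correlations moved within the sets: Hhip with Ptch1 was 0.14, Hhip with Gli1 0.16 and Ptch1 with Gli1 0.39 within cells with Rgs5 above Pdgfra, and Ptch1 with Gli1 was 0.52 within the rest. The share of all genes at least 2-fold lower, 5.26% as reported, was 3.90% among genes counted in at least 25% of cells and 10.6% among all genes counted in both sets. Scran size factors put the median log2 ratio of all genes at 0.02, as total counts did. The posterior Hox, other-lineage and richest-cell alternatives were chosen after seeing the data, and the cause of the changes was not tested. No paired analysis was possible because the labels give 1 group without pairs. At the depth of these cells Cdon, Gas1 and the ligand genes rest on few counts, and 1 sample leaves variation between animals unmeasured.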
